A study of Mus musculus with 24 samples.

Results

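The transcripts described here are 35 genes whose products copy, separate or package the genome of dividing cells. A gene was represented by the Affymetrix MOE430A probe set (several short probes matched to a transcript and summarised as 1 value) that carried its symbol alone and was brightest over the arrays. Of the 35 genes, 33 had such a probe set, out of 12393 genes in the series. Ccnb1 and Cdca8 had none and are not analysed here. Total RNA of the ventral prostate, one of the paired lobes of the mouse prostate gland, was hybridised to 24 arrays. Each of the inbred strains 129X1, AKR, BALB/c, C57BL/6, FVB and SWR gave 4 biological replicates. All mice were wild type, 8 weeks old and untreated, on a standard diet, so no strain was a treated or mutant group, and the title of the series says that expression in parental strains was used in a search for modifiers of cancer. The labels do not say whether an array held the RNA of a single mouse, so p-values measure the spread between these arrays.

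Values are log2 of the rescaled intensity plus 16. A fold is the antilog of a difference on that scale, which compresses the change of a faint transcript, and levels are not compared between probe sets. A probe set was tested when it exceeded the 40th percentile of its own array on at least 4 arrays. That held for 25 of the 33 genes; Tyms, Ccnb2, Bub1, Bub1b, Birc5, Ube2c, Kif11 and Kif20a did not pass. All 24 arrays correlated best with an array of their own strain. Luminal secretory transcripts that define the tissue were bright throughout, with Pbsn at intensities of 900 to 8790, Msmb at 2900 to 13200 and Spink1 at 5130 to 11200, whereas 4 of 6 measured seminal vesicle markers did not pass the filter. Arrays give no read depth, and precision is limited by their number.

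A dividing cell first loads the MCM helicase onto replication origins and raises its supply of deoxynucleotides, then copies its DNA around the sliding clamp encoded by Pcna. Cdk1 with cyclins A and B drives the cell into mitosis, where Aurora and Polo kinases, kinesins and spindle proteins separate the chromosomes and the anaphase-promoting complex ends the process. The adult prostate epithelium renews slowly, and many of these transcripts are made mainly between the onset of S phase and mitosis.

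The members differed among strains mostly through AKR. Against the mean of the other 5 strains, 9 of the 25 tested genes were higher in AKR and 0 were lower by limma's moderated test (Benjamini-Hochberg adjusted p under 0.05), where 4.67% of all 15775 tested probe sets were higher and 5.12% lower. The 9 genes were Mcm5, Mcm6, Pcna, Rrm1, Tk1, Cdk1, Nusap1, Stmn1 and Mki67, by 0.37 to 0.79 on the log2 scale. By unadjusted p under 0.05 the counts were 11 and 0, with Mcm7 and Cdc20 added. Without the filter 9 of 33 were higher in AKR (background 3.08%), with Ccnb2 in the place of Mcm6. AKR had the highest strain mean for 20 of the 33 genes (19.1% of all probe sets) and the lowest for 0 (13.1%). Its mean lay above that of the other strains for 31 of 33 (55% of all probe sets), Tyms and Kif20a being the exceptions. The median difference over the 33 genes was 0.29 in AKR, against 0.02 over all probe sets. The AKR advantage was small in fold, 1.29 to 1.73 for the genes called.

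AKR replicate 1, whose deposited values carry fewer decimals than those of the other arrays, weighed on the count: without it 5 members were higher in AKR. Fibroblast markers were lower in AKR, 5 of 10 by the same test and 0 higher, with summed intensities of 3060 to 3780 against 3520 to 6540 on the other arrays. With the fibroblast score of each array as a covariate, 0 of 25 members were called higher in AKR. The median difference of the tested members was 0.30 in that fit and 0.31 without the score. Their median standard error was 0.23, against 0.15, and the share of all tested probe sets called higher in AKR fell to 0.767%. AKR had the lowest mean fibroblast score of the strains (-0.37), so this fit cannot tell the score from the strain. By unadjusted p under 0.05, 7 members were higher in that fit. T and B lymphocyte markers gave 0 of 10 tested genes higher and 0 lower in AKR (0 and 2 by unadjusted p under 0.05), and their summed intensities of 386 to 613 lay within the range of the other arrays, 337 to 941. Luminal markers gave 1 higher and 3 lower of 10 in AKR, and basal markers 0 and 0 of 7, also by unadjusted p. In bulk tissue, more cells in division cannot be told apart from more of these transcripts per cell.

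**Figure D1:**
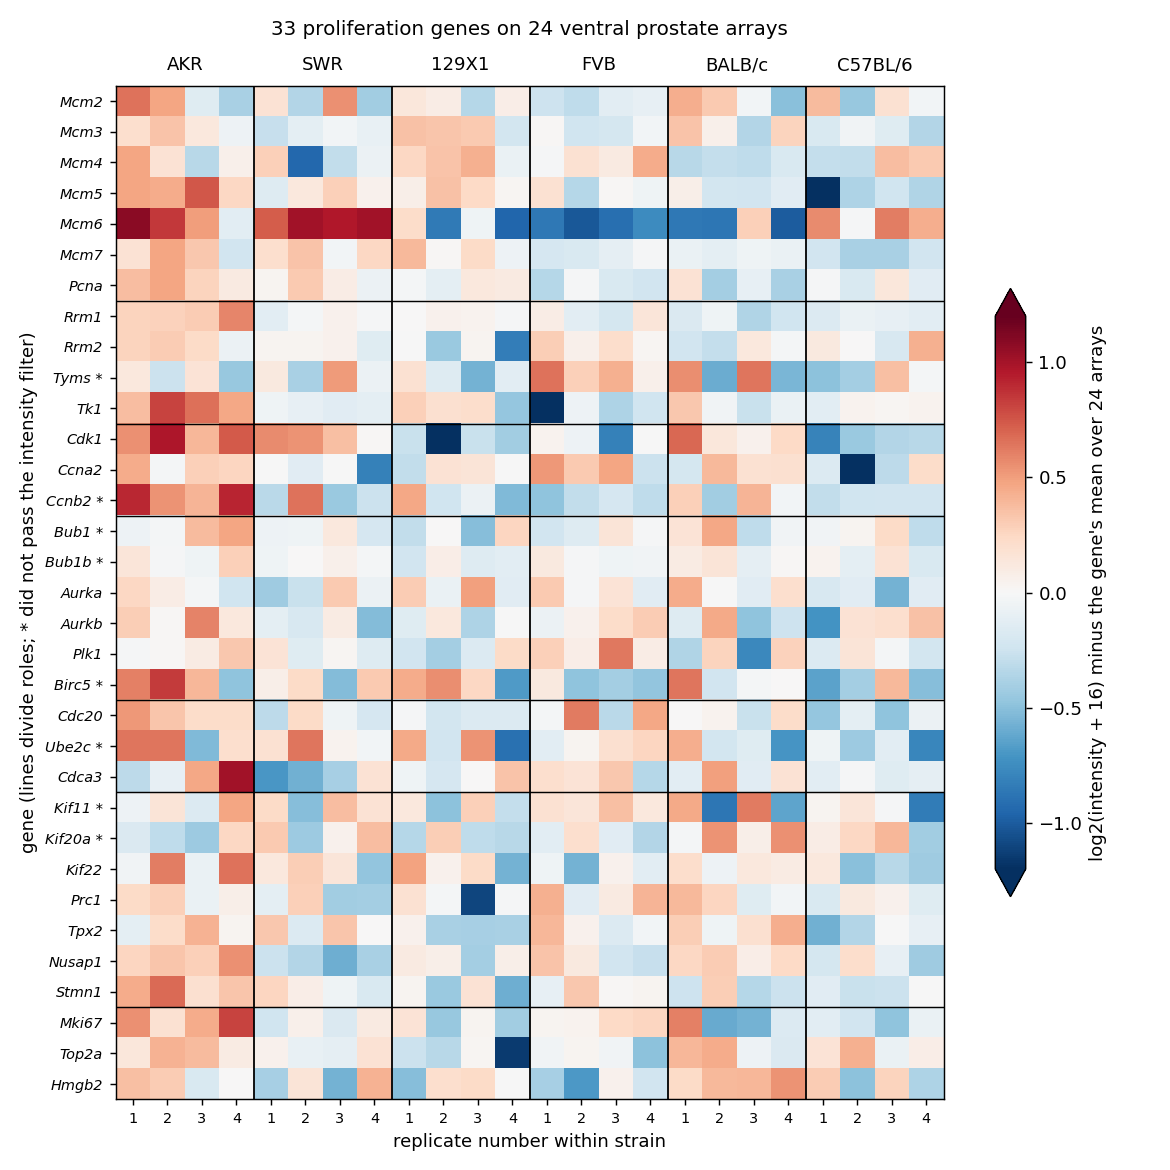
Each cell is the log2 value of a gene (rows, grouped by role) on an array (columns, grouped by strain) minus that gene's mean over the 24 arrays, with colours saturating at the ends of the bar. The AKR columns are red in most rows, and Mcm6 has the widest strain differences. Genes with an asterisk did not pass the intensity filter.

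Over all 6 strains, 12 of the 25 tested genes passed limma's moderated F test, against 36.4% of all tested probe sets, so the share of members that differed among strains was not far above the background. Without the filter it was 9 of 33 against 24.9%. The 12 genes were Mcm5, Mcm6, Mcm7, Pcna, Rrm1, Tk1, Cdk1, Cdc20, Tpx2, Nusap1, Stmn1 and Mki67. Top2a (adjusted p = 0.055) and Mcm2 (adjusted p = 0.86) did not pass.

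Promoters are shown for Mcm5 and Mcm6, the replication genes with the widest strain ranges, and for Cdk1, Top2a and Mki67 of the mitotic side. The sequences are from RefSeq on GRCm38.p6, the 250 bases before each start, written 5′ to 3′ on the gene's own strand. They lie at chr8:75109259-75109508 (plus strand, Mcm5), chr1:128359706-128359955 (minus strand, Mcm6), chr10:69352913-69353162 (minus strand, Cdk1), chr11:99024190-99024439 (minus strand, Top2a) and chr7:135716380-135716629 (minus strand, Mki67). Capitals mark 3 motifs on either strand. They are the cell cycle genes homology region or CHR (TTTGAA or TTCGAA), the CCAAT box (CCAAT) and E2F sites (TTCCCGC or TTCGCGC or TTGCCGC or TTGGCGC); adjoining or overlapping matches form 1 run of capitals.
Mcm5: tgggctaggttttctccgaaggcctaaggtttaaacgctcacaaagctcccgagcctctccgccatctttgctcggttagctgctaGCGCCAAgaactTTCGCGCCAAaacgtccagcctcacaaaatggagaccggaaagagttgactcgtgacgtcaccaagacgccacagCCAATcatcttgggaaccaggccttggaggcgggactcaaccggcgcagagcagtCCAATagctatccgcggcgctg
Mcm6: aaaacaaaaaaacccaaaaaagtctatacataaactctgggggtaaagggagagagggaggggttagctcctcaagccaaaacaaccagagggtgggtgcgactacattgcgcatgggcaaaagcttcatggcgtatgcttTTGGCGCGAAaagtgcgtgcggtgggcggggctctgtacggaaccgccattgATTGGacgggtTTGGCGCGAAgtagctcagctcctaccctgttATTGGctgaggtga
Cdk1: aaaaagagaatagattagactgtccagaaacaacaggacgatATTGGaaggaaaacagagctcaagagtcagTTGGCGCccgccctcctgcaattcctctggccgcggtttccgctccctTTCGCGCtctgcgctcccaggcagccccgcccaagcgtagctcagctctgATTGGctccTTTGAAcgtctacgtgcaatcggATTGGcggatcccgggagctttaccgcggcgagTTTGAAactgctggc
Top2a: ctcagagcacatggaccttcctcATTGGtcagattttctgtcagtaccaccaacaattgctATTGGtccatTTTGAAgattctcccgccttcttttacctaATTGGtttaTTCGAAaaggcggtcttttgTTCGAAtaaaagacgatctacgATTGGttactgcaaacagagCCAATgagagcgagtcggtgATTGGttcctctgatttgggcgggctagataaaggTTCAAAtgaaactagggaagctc
Mki67: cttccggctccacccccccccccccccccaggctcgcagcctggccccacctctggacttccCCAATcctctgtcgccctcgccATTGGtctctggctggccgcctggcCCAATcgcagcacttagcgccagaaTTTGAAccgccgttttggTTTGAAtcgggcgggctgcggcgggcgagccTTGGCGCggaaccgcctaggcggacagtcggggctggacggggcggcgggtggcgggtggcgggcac
In these windows Mcm5 had 3 E2F matches and 0 CHR matches, and Mcm6 had 4 and 0. Top2a was the reverse, with 4 CHR matches and 0 E2F matches, beside 6 CCAAT boxes. Cdk1 carried both, with 2 of each, and Mki67 had 2 CHR matches and 1 E2F match.

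The same contrast ran through the members with a promoter in the table, 29 of the 35 genes with 31 promoters between them, searched from 250 bases before to 50 bases after the start. An E2F match was present in 63.6% of the 11 promoters of replication and nucleotide supply genes, in 15% of the 20 promoters of the other members and in 9.57% of all 32851 promoters. CHR matches ran the other way, at 18.2%, 85.0% and 19.2%. A CCAAT box was found in 81.8%, 90.0% and 37.4%. A match is a description of the letters in the window and not evidence that a factor binds there. Of the genes higher in AKR, Mcm5, Mcm6 and Rrm1 had an E2F match and no CHR match, and Cdk1 and Mki67 had both. Tk1, Pcna and Nusap1 had neither, and Stmn1 had no promoter to search. None of these genes, called at their brightest probe set with the filter, had a CHR match without an E2F match. Ccnb2, called higher in AKR only without the filter, had 2 CHR matches and 0 E2F matches. Of the genes called only at another probe set, Mcm2 had 1 and 0 and Rrm2 had 0 and 1. Each Mcm7 promoter had an E2F match. Whether the motifs go with the AKR difference was not tested.

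Among the genes of replication licensing and the fork, 4 of 7 differed among strains and 3 were higher in AKR (36.4% and 4.67% of all tested probe sets). The MCM genes encode the 6 subunits of the replicative helicase, yet they did not share a strain pattern. Mcm6 read 6.45, 6.21, 5.87 and 5.24 in AKR, 6.09, 6.37, 6.32 and 6.37 in SWR, and 5.59, 4.52, 5.31 and 4.41 in 129X1. The remaining arrays read 4.50, 4.35, 4.46 and 4.62 in FVB, 4.51, 4.50, 5.65 and 4.36 in BALB/c, and 5.94, 5.35, 5.98 and 5.80 in C57BL/6. SWR was high on every array and above every array of 129X1, FVB, BALB/c and C57BL/6, while FVB was near the bottom of the scale on all 4 and did not overlap with AKR, SWR or C57BL/6. AKR, 129X1 and BALB/c each spread over more than 1 log2 unit. The range of strain means, 3.5-fold from FVB to SWR (adjusted p = 5e-05), was the widest of the 33 genes. Mcm6 was higher in SWR by 1.11 ± 0.21 (SE, adjusted p = 0.0014) and lower in FVB by -1.06 ± 0.21 (adjusted p = 0.0024) and in BALB/c by -0.73 ± 0.21 (adjusted p = 0.019). Its intensity averaged 6.41 ± 1.72 (SD, n = 4) in FVB, where no array passed the 40th percentile, against 62.5 ± 6.92 in SWR. The AKR difference of 0.69 ± 0.21 (adjusted p = 0.042) was lost in 8 of 14 other settings and with any of 10 arrays left out, down to 0.52 (adjusted p = 0.2) without AKR replicate 1. A dimmer probe set of Mcm6, below the filter, had its highest mean in SWR and its lowest in BALB/c.

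Mcm5 had a different order. Its arrays read 5.88, 5.85, 6.16 and 5.65 in AKR, 5.25, 5.54, 5.69 and 5.46 in SWR, and 5.48, 5.76, 5.65 and 5.43 in 129X1. Its other values were 5.59, 5.06, 5.42 and 5.35 in FVB, 5.48, 5.19, 5.18 and 5.27 in BALB/c, and 4.17, 5.03, 5.16 and 5.05 in C57BL/6. In AKR 3 of 4 arrays were above every other array, and in C57BL/6 3 of 4 were below every other array, with C57BL/6 replicate 1 far lower still. The range was 2.05-fold from C57BL/6 to AKR (F test adjusted p = 0.0015). Mcm5 was 0.57 ± 0.13 higher in AKR (adjusted p = 0.007), which did not hold without AKR replicate 3 (adjusted p = 0.056), and lower in C57BL/6 by -0.66 ± 0.13 (adjusted p = 0.0016). The C57BL/6 call held with each array left out and in each other setting that tested the gene. It rests on faint signals, with a mean intensity of 13.9 ± 8.09 (SD, n = 4) in C57BL/6. No array of C57BL/6, FVB or BALB/c passed the 40th percentile for Mcm5.

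Mcm7 shared the low C57BL/6 arrays of Mcm5. Mcm7 read 7.36, 7.67, 7.52 and 6.96 in AKR, 7.39, 7.54, 7.16 and 7.44 in SWR, and 7.58, 7.21, 7.42 and 7.13 in 129X1. Arrays of the last 3 strains were at 6.99, 7.01, 7.09 and 7.18 in FVB, 7.11, 7.08, 7.14 and 7.12 in BALB/c, and 6.96, 6.81, 6.81 and 6.96 in C57BL/6. In C57BL/6 3 of 4 arrays were below all 20 others and the remaining one was passed downward by AKR replicate 4 alone, while AKR, SWR and 129X1 overlapped broadly. It was lower in C57BL/6 by -0.37 ± 0.10 (adjusted p = 0.017), but not with its probe sets averaged (-0.17, adjusted p = 0.079) nor without C57BL/6 replicate 2 or 3 (adjusted p = 0.069 and 0.072). A second Mcm7 probe set of like brightness was instead higher in AKR by 0.40 (adjusted p = 0.0026) and differed from C57BL/6 less, so the probe sets of this gene disagreed on which strain stood apart.

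Pcna, the clamp that holds DNA polymerases on the template, followed AKR. Pcna read 8.36, 8.46, 8.25 and 8.09 in AKR, 8.02, 8.30, 8.07 and 7.92 in SWR, and 7.96, 7.87, 8.12 and 8.10 in 129X1. It stood at 7.64, 7.97, 7.80 and 7.75 in FVB, 8.16, 7.58, 7.88 and 7.60 in BALB/c, and 7.97, 7.80, 8.12 and 7.85 in C57BL/6. AKR held the 2 highest arrays and lay wholly above FVB, but some arrays of SWR, 129X1, BALB/c and C57BL/6 reached into its range. The difference of AKR from the others was 0.37 ± 0.10 (adjusted p = 0.022), which did not hold without AKR replicate 1, 2 or 3 (adjusted p = 0.077, 0.082 and 0.054). In pairs AKR exceeded FVB 1.41-fold (adjusted p = 0.018) and BALB/c 1.40-fold (adjusted p = 0.014).

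Mcm2, whose protein is a common stain for cells licensed to replicate, was called in no strain at its brightest probe set. Mcm2 read 7.0, 6.82, 6.20 and 5.96 in AKR, 6.52, 5.99, 6.89 and 5.93 in SWR, and 6.49, 6.44, 6.00 and 6.43 in 129X1. The other 12 arrays gave 6.10, 6.05, 6.22 and 6.25 in FVB, 6.78, 6.66, 6.31 and 5.84 in BALB/c, and 6.72, 5.89, 6.53 and 6.32 in C57BL/6. AKR alone covered most of the range of the 24 arrays, and every strain overlapped with every other. The AKR difference was 0.18 ± 0.19 (adjusted p = 0.61). Its other probe set, nearly as bright, was higher in AKR by 0.53 (adjusted p = 0.0048). Mcm3 and Mcm4, the remaining helicase subunits, had strain ranges of 1.30-fold and 1.43-fold at their brightest probe sets. These did not pass the F test (adjusted p = 0.12 and 0.17), with 129X1 highest in both. A dimmer Mcm3 probe set did pass (adjusted p = 0.021), and it was higher in BALB/c by 0.58 (adjusted p = 0.033).

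The cleanest separation of AKR was that of Rrm1 and Tk1 at their brightest probe sets, 2 of the 4 genes for enzymes that supply DNA precursors. Rrm1, the large subunit of ribonucleotide reductase, read 6.99, 7.0, 7.03 and 7.31 in AKR, 6.60, 6.70, 6.77 and 6.71 in SWR, and 6.73, 6.77, 6.77 and 6.71 in 129X1. Its readings were 6.82, 6.60, 6.51 and 6.87 in FVB, 6.55, 6.67, 6.36 and 6.48 in BALB/c, and 6.56, 6.64, 6.63 and 6.59 in C57BL/6. All 4 AKR arrays were above all 20 others, which lay between 6.36 and 6.87. Such full separation of AKR upward was found for 0.52% of all tested probe sets. The difference was 0.43 ± 0.08 (adjusted p = 0.00068), or 1.35-fold. AKR exceeded each of the other strains in pairs, from 1.26-fold over 129X1 (adjusted p = 0.029) to 1.48-fold over BALB/c (adjusted p = 0.00046). Rrm1 was also lower in BALB/c by -0.25 ± 0.08 (adjusted p = 0.026), a call lost without BALB/c replicate 1, 3 or 4 (adjusted p = 0.053 to 0.12) and in 5 of 15 other settings. A dimmer Rrm1 probe set had its highest mean in 129X1 and an AKR difference of 0.13 (adjusted p = 0.53).

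Tk1, the salvage enzyme thymidine kinase of S phase, read 6.26, 6.69, 6.54 and 6.35 in AKR, 5.84, 5.78, 5.75 and 5.76 in SWR, and 6.17, 6.08, 6.09 and 5.42 in 129X1. The rest of the arrays read 4.52, 5.83, 5.51 and 5.65 in FVB, 6.20, 5.84, 5.62 and 5.80 in BALB/c, and 5.76, 5.92, 5.91 and 5.93 in C57BL/6. Again all 4 AKR arrays were above all 20 others, the nearest being BALB/c replicate 1. FVB was the lowest strain, mainly through FVB replicate 1. Tk1 was 0.69 ± 0.16 higher in AKR, or 1.61-fold (adjusted p = 0.0066), a call that held with each array left out and was lost only with the fibroblast score as a covariate (0.78, adjusted p = 0.14). It was lower in FVB by -0.61 ± 0.16 (adjusted p = 0.02), and that call was lost without FVB replicate 1 (-0.32, adjusted p = 0.19). Tk1 had a single probe set. The small subunit Rrm2 (range 1.41-fold, F test adjusted p = 0.11) had an AKR difference of 0.22 ± 0.13 at its brightest probe set (adjusted p = 0.29) and of 0.57 at another (adjusted p = 0.01). Tyms, thymidylate synthase, was at a mean intensity of 12.9 and passed the percentile on 0 arrays.

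**Figure D2:**
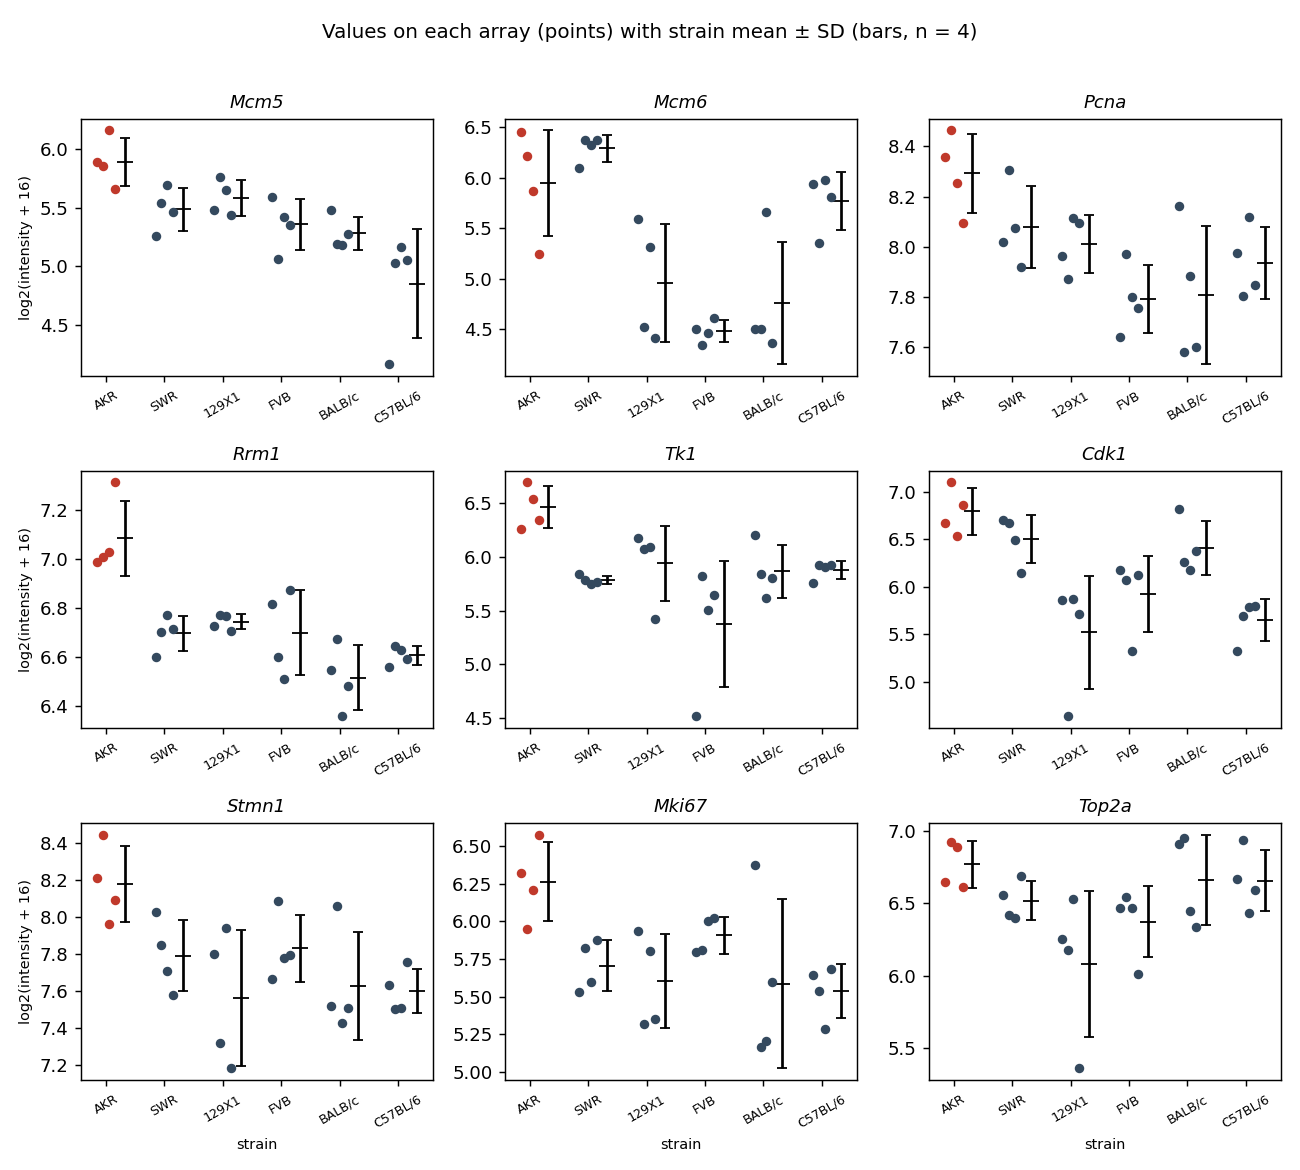
Points are single arrays and bars the strain mean ± SD (n = 4) of log2(intensity + 16), with a scale of its own for each gene. AKR (red) lies wholly above the other strains for Rrm1 and Tk1 and overlaps with them for the rest, while SWR is highest for Mcm6.

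Cdk1, the kinase that drives entry into mitosis, had the largest AKR difference of the tested genes. Its arrays gave 6.68, 7.10, 6.54 and 6.87 in AKR, 6.70, 6.67, 6.49 and 6.15 in SWR, and 5.86, 4.63, 5.87 and 5.71 in 129X1. Values elsewhere were 6.17, 6.07, 5.32 and 6.13 in FVB, 6.82, 6.27, 6.18 and 6.37 in BALB/c, and 5.33, 5.69, 5.79 and 5.80 in C57BL/6. AKR, SWR and BALB/c formed an upper range, and every array of 129X1 and C57BL/6 was below every array of those 3 strains, with FVB between and overlapping. 129X1 replicate 2 was the lowest of all. The range was 2.42-fold from 129X1 to AKR (F test adjusted p = 0.00061). AKR was higher by 0.79 ± 0.18 (adjusted p = 0.0064), which held with each array left out, while 129X1 was lower by -0.74 ± 0.18 (adjusted p = 0.0088) and C57BL/6 by -0.58 ± 0.18 (adjusted p = 0.042). The 129X1 call was lost without 129X1 replicate 2 (-0.44, adjusted p = 0.1), and the C57BL/6 call was lost with any of 14 arrays left out and with the replicate block (adjusted p = 0.053). AKR and SWR did not differ beyond their spread for Cdk1.

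Its cyclin partners were less clear. Ccna2, cyclin A2, ranged 1.60-fold at its brightest probe set, with FVB highest and C57BL/6 lowest (F test adjusted p = 0.14). Another Ccna2 probe set, nearly as bright, passed the F test (adjusted p = 0.029). It was highest in AKR (6.10) and lowest in 129X1 (5.57), and its AKR difference of 0.29 was not called (adjusted p = 0.12). Ccnb2, a B-type cyclin, was faint at a mean intensity of 10.1, and 0 arrays passed the percentile. Its strain mean was 5.33 ± 0.26 (SD, n = 4) in AKR and 4.32 to 4.70 in the others, a difference of 0.83 ± 0.17 with an adjusted p of 0.0035 in the fit without the filter. At that brightness the value rests on signals below the 40th percentile of every array.

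Few genes of the mitotic kinases and the spindle checkpoint could be tested. Of 3 tested, 0 passed the F test (36.4% of all tested probe sets did), and 0 did by unadjusted p under 0.05. Against the mean of the other strains, 0 were called in any strain. Unadjusted p under 0.05 gave 1 higher in FVB and 1 lower in C57BL/6. Aurka and Aurkb, the Aurora kinases, ranged 1.32-fold and 1.36-fold (adjusted p = 0.28 and 0.41), and Plk1, the Polo kinase, 1.34-fold (adjusted p = 0.33). The checkpoint kinases Bub1 and Bub1b and the chromosomal passenger Birc5 were too faint to be tested. In AKR the differences of these 6 genes ran from 0.02 (Aurka) to 0.41 (Birc5).

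Of Cdc20 and Cdca3, the tested members of the group named for protein breakdown in mitosis, Cdc20 passed the F test. Cdc20, which activates the anaphase-promoting complex, read 6.59, 6.41, 6.29 and 6.29 in AKR, 5.75, 6.30, 6.02 and 5.86 in SWR, and 6.05, 5.85, 5.90 and 5.90 in 129X1. Further arrays gave 6.05, 6.69, 5.75 and 6.53 in FVB, 6.07, 6.11, 5.81 and 6.29 in BALB/c, and 5.60, 5.95, 5.58 and 6.00 in C57BL/6. AKR was wholly above 129X1, C57BL/6 and, by a narrow margin (6.292 against 6.285), BALB/c. SWR replicate 2 just reached into the AKR range, which was shared with FVB, whose arrays ran both above and below it. The F test gave an adjusted p of 0.049, at the edge of the threshold and lost in 10 of 14 other settings, and AKR differed from the others by 0.39 ± 0.13 (adjusted p = 0.061). A second probe set was highest in BALB/c, by 0.55 (adjusted p = 0.00095), where the brightest probe set had a difference of 0.00. Cdca3, a factor of mitotic entry that this ligase degrades, had an AKR difference of 0.32 ± 0.18 (adjusted p = 0.29).

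Spindle and cytokinesis genes gave 3 F calls of 5 tested and 2 genes higher in AKR (36.4% and 4.67% of all tested probe sets). Nusap1, which bundles spindle microtubules, read 6.20, 6.27, 6.23 and 6.49 in AKR, 5.69, 5.59, 5.36 and 5.55 in SWR, and 6.05, 6.02, 5.53 and 6.02 in 129X1. Its levels were 6.29, 6.06, 5.71 and 5.67 in FVB, 6.20, 6.25, 6.02 and 6.18 in BALB/c, and 5.73, 6.15, 5.85 and 5.52 in C57BL/6. AKR was above every array of SWR, 129X1 and C57BL/6 and overlapped with FVB and BALB/c; SWR was the low strain. Nusap1 was 0.43 ± 0.12 higher in AKR (adjusted p = 0.02), lost without AKR replicate 4 (0.36, adjusted p = 0.11), and lower in SWR by -0.47 ± 0.12 (adjusted p = 0.0098), lost without SWR replicate 3 (-0.41, adjusted p = 0.055). AKR exceeded SWR 1.68-fold (adjusted p = 0.0019). A dimmer probe set below the filter also had its highest mean in AKR.

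Stmn1, the microtubule destabiliser stathmin, read 8.21, 8.45, 7.96 and 8.09 in AKR, 8.03, 7.85, 7.71 and 7.58 in SWR, and 7.80, 7.32, 7.94 and 7.18 in 129X1. The remaining values were 7.66, 8.09, 7.78 and 7.80 in FVB, 7.52, 8.06, 7.42 and 7.51 in BALB/c, and 7.63, 7.50, 7.51 and 7.76 in C57BL/6. In AKR 3 of 4 arrays were above every other array, the remaining one being passed by single arrays of SWR, FVB and BALB/c. The AKR difference was 0.49 ± 0.13, or 1.41-fold (adjusted p = 0.016), lost without AKR replicate 1 or 2 (adjusted p = 0.054 and 0.073). Its F test call (adjusted p = 0.037) was lost in 3 of 14 other settings and with any of 9 arrays left out. Stathmin is also made in cells that do not divide, so its level alone does not mark division.

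Tpx2, which activates Aurora A on the spindle, read 5.16, 5.50, 5.70 and 5.31 in AKR, 5.60, 5.11, 5.61 and 5.28 in SWR, and 5.33, 4.89, 4.88 and 4.89 in 129X1. It measured 5.68, 5.33, 5.11 and 5.24 in FVB, 5.57, 5.23, 5.47 and 5.71 in BALB/c, and 4.70, 4.92, 5.27 and 5.17 in C57BL/6. Values of 129X1 were low on 3 arrays, near those of C57BL/6, and the other 4 strains overlapped. The F test gave an adjusted p of 0.049 with a 1.41-fold range from 129X1 to BALB/c, and no strain was called against the mean of the others. That F test call was lost in 11 of 13 other settings and with any of 14 arrays left out. Only 4 arrays passed the percentile for Tpx2. The kinesin gene Kif22 and the midzone gene Prc1 had strain ranges of 1.48-fold and 1.36-fold (adjusted p = 0.26 and 0.38); the kinesin genes Kif11 and Kif20a did not pass the filter.

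Mki67 encodes the Ki-67 antigen, the standard histological mark of cycling cells. It read 6.32, 5.95, 6.21 and 6.58 in AKR, 5.53, 5.83, 5.60 and 5.88 in SWR, and 5.93, 5.32, 5.80 and 5.36 in 129X1. The other strains gave 5.80, 5.81, 6.00 and 6.03 in FVB, 6.37, 5.17, 5.20 and 5.60 in BALB/c, and 5.64, 5.54, 5.29 and 5.68 in C57BL/6. AKR was above every array of SWR, 129X1 and C57BL/6, and only 2 arrays of FVB and replicate 1 of BALB/c reached into its range. The AKR difference was 0.60 ± 0.16, or 1.51-fold (adjusted p = 0.018), and was lost without AKR replicate 1 or 4 (adjusted p = 0.06 and 0.11). In pairs AKR exceeded C57BL/6 1.66-fold (adjusted p = 0.021), BALB/c 1.60-fold (adjusted p = 0.029) and 129X1 1.58-fold (adjusted p = 0.037). Its F test call (adjusted p = 0.04) was lost in 6 of 13 other settings and with any of 11 arrays left out.

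Top2a, the topoisomerase that untangles sister chromatids, read 6.65, 6.92, 6.89 and 6.61 in AKR, 6.56, 6.42, 6.40 and 6.69 in SWR, and 6.25, 6.18, 6.53 and 5.36 in 129X1. Its remaining arrays were at 6.47, 6.55, 6.46 and 6.01 in FVB, 6.91, 6.95, 6.45 and 6.34 in BALB/c, and 6.67, 6.93, 6.43 and 6.59 in C57BL/6. AKR, BALB/c and C57BL/6 overlapped at the top, and 129X1 was low, mainly on replicate 4. Top2a was lower in 129X1 by -0.52 ± 0.15 (adjusted p = 0.026). 129X1 replicate 4 also had the highest skeletal muscle marker score of the series, 1.89, and without it the difference was -0.28 (adjusted p = 0.25). It was -0.45 (adjusted p = 0.065) with that score as a covariate, and the call was also lost without 129X1 replicate 2 (adjusted p = 0.051). AKR differed from the mean of the others by 0.31 ± 0.15 (adjusted p = 0.21). The chromatin gene Hmgb2 ranged 1.63-fold with BALB/c highest (F test adjusted p = 0.15).

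**Figure D3:**
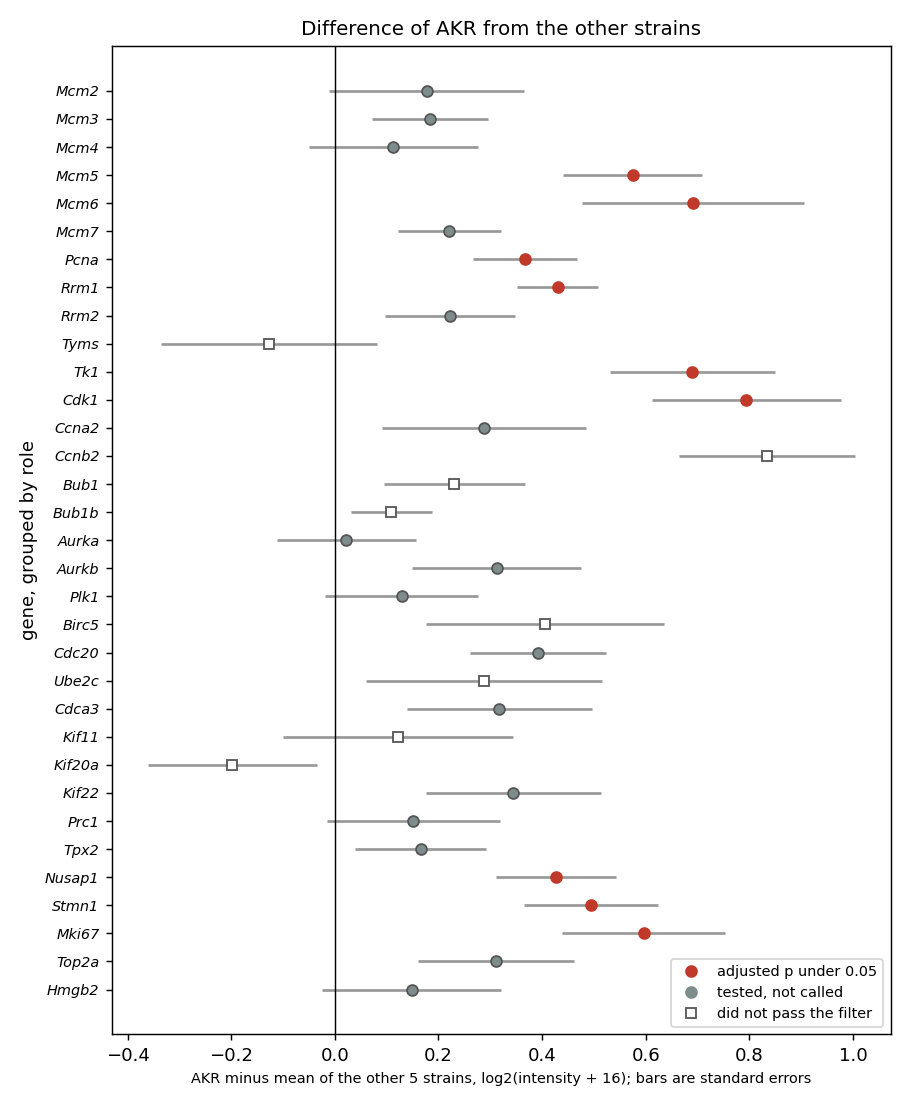
Points are the AKR mean minus the mean of the other 5 strain means for each of the 33 genes on the log2(intensity + 16) scale, with standard errors from the limma fit. Red points were called at an adjusted p under 0.05, and open squares did not pass the filter. Of the 33, 31 lie to the right of 0, and Tyms and Kif20a lie to its left.

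The other strains had few member calls. SWR had 1 member higher (Mcm6, background 5.52%) and 1 lower (Nusap1, 5.04%). At the brightest probe sets, no member was higher in 129X1, FVB, BALB/c or C57BL/6 (backgrounds 6.38%, 3.45%, 8.3% and 5.65%). By unadjusted p under 0.05, 1, 1, 2 and 1 members were higher in these 4 strains, and 5, 4, 3 and 7 were lower. SWR had 3 higher and 2 lower by unadjusted p. Lower members were Cdk1 and Top2a in 129X1 (5.27%), Mcm6 and Tk1 in FVB (3.65%), Mcm6 and Rrm1 in BALB/c (10.6%) and Mcm5, Mcm7 and Cdk1 in C57BL/6 (5.45%). C57BL/6 and 129X1 each had the lowest strain mean for 10 of the 33 genes (18% and 15.5% of all probe sets). The C57BL/6 mean lay above that of the other strains for 7 of the 33 (45.3% of all probe sets), and the 129X1 mean for 12 (49.8%). The median difference over the 33 genes was -0.16 in C57BL/6 and -0.11 in 129X1, against -0.02 and -0.0012 over all probe sets, and between -0.02 and 0.05 in SWR, FVB and BALB/c.

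Several marker lists also differed in BALB/c, some of them in another strain too. With the luminal or the adipocyte score as a covariate, 0 members were lower in BALB/c, against 2 without a score. The members' median standard error in BALB/c was 0.31 and 0.19 in those fits, against 0.15. Smooth muscle and basal scores were not used as covariates, and the cause of the BALB/c member calls was not tested. Luminal markers were higher in BALB/c in 6 of 10 and lower in 1, with summed intensities of 38100 to 42300 against 19000 to 31700 on the other arrays. Smooth muscle markers were lower in 7 of 10, at 4660 to 4920 against 5550 to 12800. Basal epithelial markers were lower in 5 of 7 and higher in 0, at 362 to 428 against 356 to 1040, a range that C57BL/6 shared. Adipocyte markers were higher in 4 of 5 and lower in 0, at 489 to 3720 against 207 to 3880. FVB shared this, with 3 of 5 higher and 0 lower at 318 to 3880.

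Between pairs of strains, AKR exceeded SWR in 3 members (background 4.77%), 129X1 in 7 (5.07%), FVB in 5 (3.58%), BALB/c in 6 (6.89%) and C57BL/6 in 8 (5.5%), and was lower in 0 of them (5.27%, 6.31%, 3.84%, 5.74% and 6%). These 5 comparisons share the AKR arrays. Over all 15 pairs there were 46 member calls, of which 29 had AKR as the higher strain. In the pairs without AKR, 0 to 3 of the 25 tested members were called in each direction. The share of all tested probe sets called there ran from 3.15% to 10.6%. Rrm1 was the member called in each of the 5 AKR pairs.

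The mean deviation of the 33 genes on an array, each gene centred on its mean over the 24 arrays, was 0.26 ± 0.06 (SD, n = 4) in AKR, with arrays from 0.19 to 0.32. It was -0.01 ± 0.03 in SWR, -0.08 ± 0.13 in 129X1, -0.04 ± 0.02 in FVB, 0.00 ± 0.10 in BALB/c and -0.14 ± 0.07 in C57BL/6. The 4 AKR arrays were above all others, the nearest being a BALB/c array at 0.14. The same arrays had fibroblast marker scores of -0.46 to -0.20, which overlapped with BALB/c and C57BL/6 but not with SWR, 129X1 or FVB. Lymphocyte scores in AKR, -0.23 to 0.17, overlapped with every strain.

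**Figure D4:**
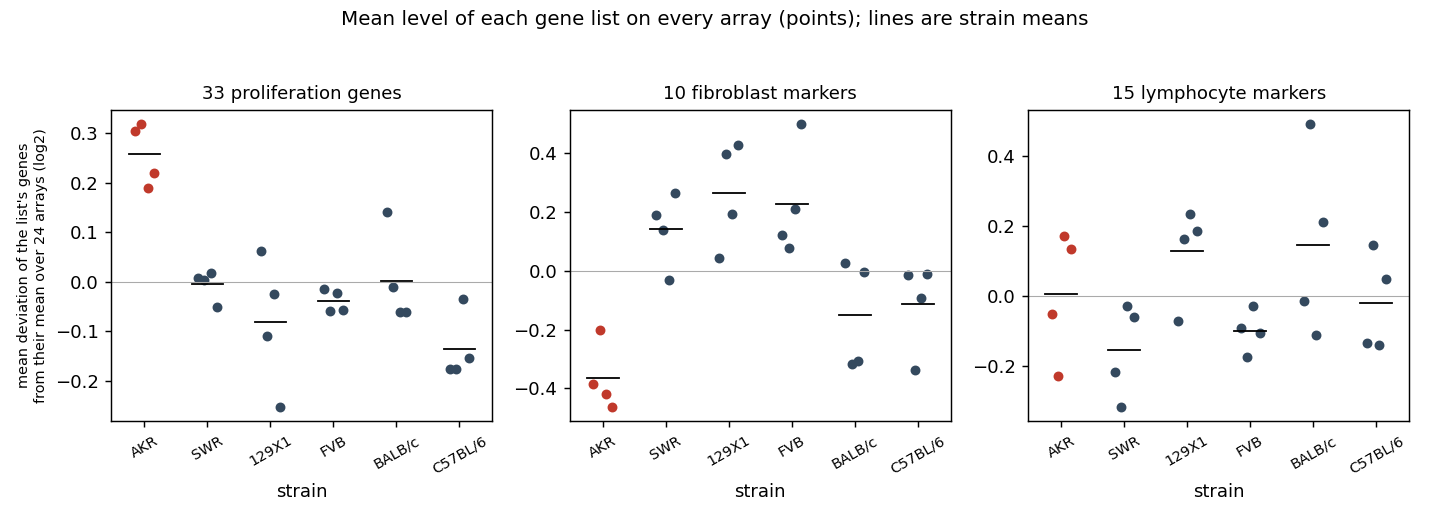
Each point is an array and each line a strain mean; the vertical axis is the mean log2 deviation of a list's measured genes from their means over 24 arrays. AKR is highest for the proliferation genes and lowest on average for the fibroblast markers, and it is not set apart for the lymphocyte markers.

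Within strains the members hardly moved together. Over the 300 pairs of the 25 tested genes, the correlation of their deviations from the strain means across the 24 arrays had a median of 0.04 and ran from -0.62 to 0.63, with 173 pairs above 0. The median within-strain SD was 0.29 for these genes and 0.23 for all tested probe sets. These correlations share arrays and low intensities and are a description only.

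The 33 genes had 65 probe sets in all. Of the 32 that were not the brightest, 29 gave an AKR difference of the same sign as the brightest probe set of their gene. Of the 11 that passed the filter, 3 were higher in AKR (Mcm2, Mcm7 and Rrm2) and 0 lower (4.67% and 5.12% of all tested probe sets). AKR was not alone in this. In BALB/c, probe sets of Mcm3 (0.58, adjusted p = 0.033) and Cdc20 (0.55, adjusted p = 0.00095) were higher. One of Rrm2 was lower there (-0.74, adjusted p = 0.00073). The BALB/c backgrounds were 8.3% and 10.6%. The Cdc20 probe set was also lower in C57BL/6 (-0.44, adjusted p = 0.0094, background 5.45%).

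Counts in the wider cell cycle lists stand against the shares of all tested probe sets given above, 4.67% higher and 5.12% lower in AKR and 36.4% by the F test. Among other genes of the replication origin and fork, 0 of 28 tested were higher in AKR (3 by unadjusted p under 0.05) and 1 was lower (2 by unadjusted p), Rpa1, a subunit of the single-strand DNA binding complex (-0.35, adjusted p = 0.0025), and 4 passed the F test. Rpa1 ranged 2.01-fold from FVB to C57BL/6, Cdt1, the licensing factor, 1.46-fold with AKR highest (F test adjusted p = 0.045) and Rfc1, a clamp loader subunit, 1.36-fold with AKR lowest (adjusted p = 0.045). The median AKR difference of the 41 measured genes of this list was 0.10.

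Of other genes of mitosis and cytokinesis, 2 of 27 tested were higher in AKR and 0 lower (3 and 1 by unadjusted p under 0.05), and 8 passed the F test. The median AKR difference of the 44 measured genes was 0.07. Pttg1, securin, had the widest range, 3.96-fold from SWR to C57BL/6 (adjusted p = 0.00026), so its highest strain was the one with the lowest member score. Spc25, a kinetochore subunit, ranged 1.95-fold with BALB/c highest (adjusted p = 0.03). Tubb5, a beta tubulin, ranged 1.91-fold with AKR highest (adjusted p = 0.00088) and was 0.48 higher in AKR (adjusted p = 0.011).

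Regulators of the step from G1 to S gave 1 higher and 2 lower in AKR of 13 tested (1 and 2 by unadjusted p under 0.05), and 5 passed the F test. Their median AKR difference over 16 measured genes was -0.01. E2f1, the transcription factor whose site is among the motifs above, was 0.58 higher in AKR (adjusted p = 0.018), at strain means of 6.34 in AKR and 5.58 to 6.05 in the others. Rb1 and its relative Rbl2, which restrain E2F factors, were highest in SWR and lowest in BALB/c, each over 1.68-fold (F test adjusted p = 0.0075 and 0.0052), and were not called in AKR. A list of D cyclins, inhibitors of cyclin-dependent kinases and other genes tied to growth arrest (Btg1, Btg2, Gas1, Ccng1 and Ccng2) differed among strains in 10 of 13 tested genes, with 2 higher and 0 lower in AKR (3 and 2 by unadjusted p under 0.05). Its median AKR difference over 15 measured genes was 0.10. Ccnd2, cyclin D2, ranged 6.68-fold from 7.57 in C57BL/6 to 10.31 in SWR (F test adjusted p = 2.8e-11), and Btg2, an antiproliferative gene, 4.72-fold from SWR to FVB (adjusted p = 1.3e-10). Both were higher in AKR, by 0.52 (adjusted p = 0.01) and 0.66 (adjusted p = 0.00032). Gas1, a growth arrest gene, ranged 2.74-fold from BALB/c to FVB (adjusted p = 0.00025).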

How the data were processed

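Ventral prostate RNA of 24 mouse samples was read on MOE430A arrays. Each probe set has a deposited linear intensity for every array, made with MAS5 per the submitters' processing notes, whose settings are not given in the sources used here; the deposited mean of 143.08 was the same on every array. Intensities were rescaled here to a common 2% trimmed mean of 98.7 (91.4 to 104.6 before), and log2 was taken after adding 16. After removal of 64 controls from 22690 probe sets, 15775 passed the filter. Platform annotation gave 1 symbol for 20393 probe sets, several for 691 and none for 1606, and the symbols of 20364 probe sets matched RefSeq (GRCm38.p6).

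Models had 1 coefficient per strain (limma 3.58.1 in R 4.3.3, 18 residual and 4.85 prior degrees of freedom), with two-sided tests and Benjamini-Hochberg adjustment over all tested probe sets within a comparison. The fit was tested on simulated data. The members and gene lists were chosen with earlier results of these data known. Values on every array are given for Mki67, Top2a, Pcna, Cdk1 and Mcm2 and for further members that passed the F test; up to 3 genes of each pathway list are named, those that passed with the widest ranges. Replicate numbers did not pair samples: with strain means removed, same-numbered arrays of 2 strains correlated at 0.0053 on average (60 pairs, 5 of them over 0.1). Motif counts and figures were made in Python with matplotlib. Alternatives covered the pseudocount, filter, normalization, probe set choice, comparison group, replicate block, marker scores as covariates and each array left out. Fibroblast and adipocyte scores as covariates, and leaving out 3 arrays with high skeletal muscle scores, were chosen after seeing the data.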

Additional observations from a re-analysis of the deposited data

Results flagged for a closer look

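In 13 of the 90 groups of 4 arrays examined, 1 array stood apart from the other 3 by a gap past Dixon's critical value at 95%; chance flags about 1 in 20 groups. The 90 groups share arrays and probe sets of like brightness, so this share was not compared with chance. Values are log2(intensity + 16).

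Among low arrays, Cdk1 was 4.63 on 129X1 replicate 2 (5.71 to 5.87 on the others of its strain) and 5.32 on FVB replicate 3 (6.07 to 6.17). Top2a was 6.01 on FVB replicate 4 (6.47 to 6.55). Mcm2 was 6.01 on 129X1 replicate 3 (6.43 to 6.49), and Nusap1 was 5.53 on the same array (6.02 to 6.06). Tk1 was 5.42 on 129X1 replicate 4 (6.08 to 6.17) and 5.76 on C57BL/6 replicate 1 (5.91 to 5.93). Mcm5 was 4.17 on C57BL/6 replicate 1 (5.03 to 5.16).

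Among high arrays, Rrm1 was 7.31 on AKR replicate 4 (6.99 to 7.03). Mcm6 was 5.65 on BALB/c replicate 3 (4.36 to 4.51), Stmn1 was 8.06 on BALB/c replicate 2 (7.42 to 7.52) and Tpx2 was 5.33 on 129X1 replicate 1 (4.88 to 4.89). The mean deviation of the 33 genes was -0.04 on C57BL/6 replicate 3, with the other 3 arrays at -0.18 to -0.15.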

How the results depend on the processing

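The 9 members higher in AKR became 5 with a 60th percentile filter (11 members tested), 4 with the other 20 arrays as 1 group and 0 with the fibroblast score as a covariate; elsewhere 6 to 12 were called, and 5 to 10 with an array left out. With the replicate block there were 10. In each of these settings 0 members were lower in AKR. The F test's 12 calls became 7 with the 60th percentile filter, 8 to 16 elsewhere and 8 to 12 with an array left out, and 12 with the replicate block. The 46 calls over pairs became 25 with the 60th percentile filter, 18 with the fibroblast score and 38 to 48 with an array left out.

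Calls of the other strains were few and moved easily. The 60th percentile filter left 0 in SWR (higher and lower) and FVB and 1 lower in BALB/c. With the other 20 arrays as 1 group there were 0 in SWR, 129X1, FVB and BALB/c and 1 in C57BL/6. The fibroblast score left 0 lower in 129X1 and FVB, 1 lower and 1 higher in BALB/c. The adipocyte score left 0 lower in BALB/c, 1 in FVB and 1 in C57BL/6. The luminal score left 1 in 129X1 and 0 in BALB/c, where the share of all probe sets called lower fell from 10.6% to 0.64% and the members' median standard error grew from 0.15 to 0.31. The lymphocyte score left 1 lower in BALB/c and 1 higher in FVB, and the skeletal muscle score, or leaving out its 3 highest arrays, 1 in 129X1. Averaged probe sets gave 2 higher in BALB/c. With an array left out, lower calls ran from 0 to 4 in 129X1, 0 to 2 in BALB/c, 1 to 4 in C57BL/6, 1 to 2 in FVB and 0 to 2 in SWR, and higher calls from 0 to 1 in 129X1 and BALB/c. Cdc20 in BALB/c turned from 0.00 to 0.28 (adjusted p = 0.045) with probe sets averaged, through its second probe set. Of 20 called differences of the named members, 6 held with every array left out. Only 1, Mcm5 in C57BL/6, held in every other setting that tested it, at intensities that did not pass the 40th percentile of those arrays. The cause of these changes was not tested.

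Several members lie near the lower end of the signal, where a difference rests on few intensity units; 8 of the 33 could not be tested for that reason.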
